A study of Mus musculus with 27 samples.

Results

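The Cyp1 family of the mouse consists here of 3 genes, Cyp1a1, Cyp1a2 and Cyp1b1, picked out by name from the 41388 gene identifiers that the count files list, a rule that uses no measured value, although the family was taken up with earlier results of these data known. Liver RNA was sequenced from C57BL/6 females that had been ovariectomized, aged 120 days per the labels, after gavage with sesame oil alone (vehicle) or with sesame oil that carried TCDD (2,3,7,8-tetrachlorodibenzo-p-dioxin). The doses of TCDD were 0.01, 0.03 and 0.1 µg/kg, then 0.3, 1 and 3 µg/kg, and at the top 10 and 30 µg/kg. There were 9 groups of 3 livers, 27 libraries in all, and dosing was repeated every 4 days over 92 days, although the labels also call it daily. The question put to the counts was at which dose each of the 3 genes first rose, at which dose it reached the middle of its range, and whether it levelled off by the highest dose.

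TCDD is broken down very slowly and binds the aryl hydrocarbon receptor (AhR), a transcription factor that moves into the nucleus, pairs with ARNT and binds xenobiotic response elements, whose core is written GCGTG. The Cyp1 genes are its best known targets and encode microsomal cytochrome P450 monooxygenases, which take electrons from P450 oxidoreductase. Cyp1a1 oxidises polycyclic aromatic hydrocarbons and is nearly silent in the untreated liver. Cyp1a2 oxidises arylamines and caffeine, is made constitutively by hepatocytes and binds TCDD itself in the mouse liver. Cyp1b1 converts estradiol to catechol estrogens and is known mainly from tissues other than liver parenchyma.

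Cyp1a1 (ENSMUSG00000032315, chr9:57687928-57703824, plus strand) and Cyp1a2 (ENSMUSG00000032310, chr9:57676937-57683703, minus strand) lie head to head on chromosome 9 of GRCm38, with 4224 bp between the gene bodies in the GENCODE M21 annotation and 13958 bp between the start sites in RefSeq. Cyp1b1 (ENSMUSG00000024087, chr17:79701537-79715061, minus strand) lies alone on chromosome 17. The merged exons span 2787, 2013 and 5840 bases in Cyp1a1, Cyp1a2 and Cyp1b1, and 0% of them overlaps another annotated gene on either strand. The promoters, from 250 bases before to 50 bases after the start site, are shown because the genes share a receptor but not a dose response. They were taken from RefSeq on GRCm38.p6, where all 3 genes matched, and run 5′ to 3′ on the strand of the gene at chr9:57697363-57697662 (plus), chr9:57683606-57683905 (minus) and chr17:79715012-79715311 (minus). Capitals mark GCGTG on either strand, which reads CACGC where it lies on the opposite one, and TATAAA on the strand of the gene.
Cyp1a1: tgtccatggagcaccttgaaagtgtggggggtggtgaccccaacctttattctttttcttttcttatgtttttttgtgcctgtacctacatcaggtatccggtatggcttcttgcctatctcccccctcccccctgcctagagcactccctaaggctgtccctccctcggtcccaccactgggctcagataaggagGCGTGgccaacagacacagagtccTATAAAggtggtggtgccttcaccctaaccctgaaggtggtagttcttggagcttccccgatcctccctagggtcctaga
Cyp1a2: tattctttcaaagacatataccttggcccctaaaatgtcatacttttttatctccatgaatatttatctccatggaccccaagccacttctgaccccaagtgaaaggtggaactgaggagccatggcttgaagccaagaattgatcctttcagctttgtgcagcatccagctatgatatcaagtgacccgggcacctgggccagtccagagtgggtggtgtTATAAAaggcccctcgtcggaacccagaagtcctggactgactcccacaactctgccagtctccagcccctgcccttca
Cyp1b1: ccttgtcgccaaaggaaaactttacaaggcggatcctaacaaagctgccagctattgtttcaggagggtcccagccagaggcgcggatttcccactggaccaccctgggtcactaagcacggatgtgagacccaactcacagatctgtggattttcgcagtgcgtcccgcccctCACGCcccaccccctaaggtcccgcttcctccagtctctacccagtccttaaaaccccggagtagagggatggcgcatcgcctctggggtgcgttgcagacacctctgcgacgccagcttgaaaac
In the Cyp1a1 window GCGTG begins at position -54 from the start site and TATAAA at -30. The Cyp1a2 window holds TATAAA at -29 and no GCGTG. In the Cyp1b1 window GCGTG lies on the opposite strand, with its leftmost base at -76, and there is no TATAAA. Among 32544 promoter windows of the same length, 32.6% hold GCGTG on either strand and 8.28% hold TATAAA on the strand of the gene. The longer form TNGCGTG, which contains GCGTG, occurs in 5.09% of the windows and in none of these 3. The letters describe these windows only, and binding of a factor was not measured.

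Between 11050391 and 30873586 counts were obtained per library in 26 of the 27, and 434011 in the shallow one, the second at 0.3 µg/kg. The filter on low counts kept 15121 genes, all 3 Cyp1 genes among them. Levels below are CPM, read counts scaled to library size, after TMM scaling, and a gene was called where edgeR's quasi-likelihood test gave an adjusted p below 0.05 over all genes tested. By the names of the deposited counts, each library from vehicle to 10 µg/kg carries its own index sequence, 24 in all. The 30 µg/kg libraries carry the 3 indices of vehicle. For 0.01 to 10 µg/kg against vehicle, and for each step between neighbouring doses, the groups compared share no index. The livers of a group also differ in index, so index cannot be told apart from dose or from the single liver. The 30 µg/kg against vehicle comparison has the same indices on both sides, which does not show that those libraries were sequenced together. Markers of liver cell types also moved with dose. At 30 µg/kg, 5 of 7 hepatocyte markers were lower, and 4 of 5 cholangiocyte, 6 of 12 stellate cell and fibroblast, 3 of 6 lymphocyte and all 7 tested neutrophil markers were higher than in vehicle. The 7 hepatocyte markers summed to between 59115 and 96863 CPM at 30 µg/kg, against 119890 to 228942 CPM in vehicle. Of all genes tested, 18.0% were called higher and 19.4% lower in that comparison. In bulk liver, fewer cells of a type and less RNA per cell cannot be told apart.

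Cyp1a1 rose most steeply in fold between 0.01 and 0.1 µg/kg, although its mean at 0.1 µg/kg was 17.1% of that at 30 µg/kg. It was low in vehicle and at 0.01 µg/kg, with 61 to 114 reads per library, rose 46.9-fold at 0.03 µg/kg and 394-fold at 0.1 µg/kg, and reached 2299.5-fold at 30 µg/kg. The 3 vehicle livers had 3.69, 3.19 and 2.49 CPM, those at 0.01 µg/kg 4.59, 2.73 and 3.54, those at 0.03 µg/kg 131, 180.2 and 129, and those at 0.1 µg/kg 1333, 1129 and 1239 CPM. Higher up, the livers at 0.3 µg/kg had 2122, 3543 and 3528 CPM, those at 1 µg/kg 3173, 4864 and 4017, those at 3 µg/kg 4803, 5809 and 5170.5, those at 10 µg/kg 4941, 6381 and 5885, and those at 30 µg/kg 6938, 7943 and 6721 CPM. The vehicle and 0.01 µg/kg livers overlapped, and every liver from 0.03 µg/kg upward lay above all of them. Livers of neighbouring groups overlapped from 0.3 to 10 µg/kg, whereas all 3 livers at 30 µg/kg lay above all at 10 µg/kg. The log2 fold change against vehicle was 0.21 with a 95% interval of -0.29 to 0.72 at 0.01 µg/kg (edgeR, adjusted p = 1) and 5.55 ± 0.27 (SE) at 0.03 µg/kg (edgeR, adjusted p = 3.00e-13). By the top dose it was 11.17 ± 0.33 (SE, edgeR, adjusted p = 2.18e-18). At each dose from 0.03 µg/kg upward, Cyp1a1 had the smallest p of all genes tested against vehicle.

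Cyp1a2 started high and rose over the whole range of dose. Its level was 777, 664 and 743 CPM in the vehicle livers, with 1746, 1366 and 1245 CPM at 0.01 µg/kg, then 3321, 3514 and 3083 CPM at 0.03 µg/kg, and with 0.1 µg/kg 6245, 5301 and 6386 CPM. The next livers had 7656, 12266 and 12316 (0.3 µg/kg), 7959, 13651 and 14069 (1 µg/kg), 15371, 16227 and 14984 (3 µg/kg), 14422, 20739 and 20005 (10 µg/kg) and finally 28405, 27074 and 23746 CPM (30 µg/kg). No group overlapped its lower neighbour up to 0.3 µg/kg, the groups at 0.3 and 1 µg/kg and those at 3 and 10 µg/kg overlapped, and the livers at 30 µg/kg lay above all others. Against vehicle the level was 4.54-fold at 0.03 µg/kg (log2 fold change 2.18 ± 0.23, SE) and 36.3-fold at 30 µg/kg (5.18 ± 0.26, SE), with edgeR adjusted p of 3.69e-06 and 5.40e-14. Although its fold was the smallest of the family, its level at 30 µg/kg was the highest. At 30 µg/kg Cyp1a2 took up 3.36% of all counts (3.14% to 3.79% in the 3 livers), against 0.0687% in vehicle.

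The lowest dose is the point on which Cyp1a2 differs from the other members in its values. At 0.01 µg/kg all 3 livers were above all 3 vehicle livers for Cyp1a2, with 1.99-fold the vehicle level. The log2 fold change was 1.00 with an interval of 0.55 to 1.44. By edgeR its unadjusted p was 0.000108, at place 8 among all genes, and its adjusted p was 0.193. edgeR called 0 of the 3 Cyp1 genes at this dose, and 0% of all genes tested, where 1 Cyp1 gene had an unadjusted p below 0.05. DESeq2 called Cyp1a2 at an adjusted p = 0.00429 and 15 genes in all. Of all genes tested, 724 (4.79%) had an unadjusted edgeR p below 0.05. Whether Cyp1a2 was called at 0.01 µg/kg therefore turns on the tool, while its log2 fold change was 1.00 by edgeR and 1.01 by DESeq2.

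Cyp1b1 stayed at the bottom of the range up to 0.1 µg/kg and then rose steeply. Vehicle livers had 0.821, 0.784 and 0.682 CPM, livers at 0.01 µg/kg 0.523, 0.756 and 0.664, livers at 0.03 µg/kg 0.549, 0.633 and 0.603, and livers at 0.1 µg/kg 1.03, 1.52 and 0.431 CPM. These are 10 to 26 reads per library. At 0.3 µg/kg it had 1.70, 5.75 and 2.70 CPM, the second value resting on 2 reads in the shallow library. The livers at 1 µg/kg had 162, 135 and 122 CPM, those at 3 µg/kg 192, 240.3 and 233, those at 10 µg/kg 581, 727 and 850.0, and those at 30 µg/kg 2067, 1283 and 2543 CPM. From 0.3 µg/kg upward every group lay wholly above the one below it. At 0.3 µg/kg the level was 3.01-fold that of vehicle (log2 fold change 1.59 ± 0.38, SE; edgeR, adjusted p = 0.0284). The call at 0.3 µg/kg was lost when any 1 vehicle library was left out (adjusted p between 0.0795 and 0.136 by edgeR) and without the third 0.3 µg/kg library (edgeR, adjusted p = 0.422). Without the shallow library it was kept, at a log2 fold change of 1.52 (edgeR, adjusted p = 0.0477). At 1 µg/kg the level was 182-fold and at 30 µg/kg 2557-fold that of vehicle (log2 fold change 11.32 ± 0.39, SE; edgeR, adjusted p = 2.82e-17).

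**Figure D1:**
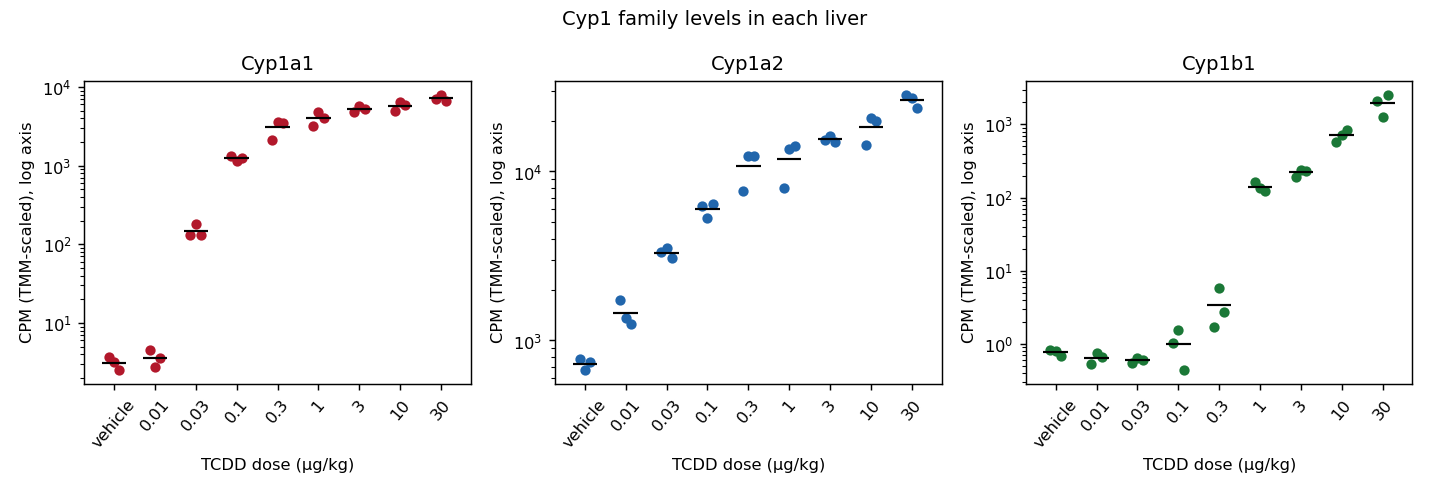
Level of Cyp1a1, Cyp1a2 and Cyp1b1 in CPM with TMM scaling (log axes with a separate range for each gene) against TCDD dose in µg/kg, with each point 1 liver and each black line the mean of 3. Cyp1a1 leaves its vehicle level of 2.49 to 3.69 CPM at 0.03 µg/kg, Cyp1a2 climbs at nearly every dose, and Cyp1b1 reaches 122 to 162 CPM only at 1 µg/kg.

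Counting calls against vehicle, 2 of 3 Cyp1 genes were higher at 0.03 µg/kg, where 0.0331% of all genes tested were called higher, and 2 of 3 at 0.1 µg/kg, where 0.145% were. All 3 were higher at 0.3, 1, 3, 10 and 30 µg/kg, where 0.622%, 11.1%, 5.17%, 11.3% and 18.0% of all genes were. The onset, taken as the lowest dose from which a gene was called at every higher dose, was therefore 0.03 µg/kg for Cyp1a1 and Cyp1a2 and 0.3 µg/kg for Cyp1b1. An onset set by a call depends on the number of reads and on the tool. Read off the group means by interpolation in log level against log dose, the dose at which the level was doubled was 0.0118 µg/kg for Cyp1a1, 0.0100 µg/kg for Cyp1a2 and 0.147 µg/kg for Cyp1b1. The dose that gave 10 times the vehicle level was 0.0190 µg/kg for Cyp1a1, 0.145 µg/kg for Cyp1a2 and 0.390 µg/kg for Cyp1b1. By the first of these readings Cyp1a1 and Cyp1a2 lie close together, and by the second Cyp1a1 comes first. Both interpolated doses of Cyp1b1 rest on its unweighted 0.3 µg/kg mean of 3.38 CPM. In that mean the shallow library has 5.75 CPM from 2 reads, beside 1.70 and 2.70 CPM in the other livers. In vehicle the mean level of Cyp1a2 was 233 times that of Cyp1a1 in CPM.

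The steps between neighbouring doses show where each gene moved. Cyp1a1 rose at 0.03 against 0.01 µg/kg by 5.34 on the log2 scale, where 0.0595% of all genes were called higher, and at 0.1 against 0.03 µg/kg by 3.07, where 0.0265% were. It rose again at 0.3 against 0.1 µg/kg by 1.31 (95% interval 0.86 to 1.76; edgeR, adjusted p = 0.0148), where 0.0198% of all genes were. In a fit without any 1 of the 0.1 µg/kg libraries, or without the second or the third 0.3 µg/kg library, that step was no longer called (edgeR, adjusted p between 0.107 and 0.227). None of its later steps was called by edgeR: the log2 fold changes were 0.39 at 1 against 0.3, 0.39 at 3 against 1, 0.12 at 10 against 3 and 0.33 at 30 against 10 µg/kg, with unadjusted p between 0.0818 and 0.569. For Cyp1a2 the step at 0.03 against 0.01 µg/kg was called, with a log2 fold change of 1.19 (interval 0.74 to 1.64; edgeR, adjusted p = 0.0175). This call was lost without any 1 of the 0.03 µg/kg libraries or without the second or the third 0.01 µg/kg library (edgeR, adjusted p between 0.0834 and 0.204). The other steps of Cyp1a2 were all positive, between 0.15 at 1 against 0.3 and 1.00 at 0.01 µg/kg against vehicle, and none was called. DESeq2 called the Cyp1a2 steps at 0.1 against 0.03 (0.86, adjusted p = 0.0266) and at 0.3 against 0.1 µg/kg (0.88, adjusted p = 0.0281) as well.

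The largest step of Cyp1b1 was at 1 µg/kg, and smaller ones followed at the top. At 1 against 0.3 µg/kg it rose 60.4-fold (log2 fold change 5.92, interval 5.18 to 6.65; edgeR, adjusted p = 6.01e-11), with the smallest p of all genes tested, and 5.1% of all genes were called higher in that step. No index is shared by the libraries of these groups. Without the shallow 0.3 µg/kg library the log2 fold change of this step was 5.98. At 3 against 1 µg/kg the log2 fold change was 0.67 (interval 0.17 to 1.17; edgeR, adjusted p = 0.158), where 0.311% of all genes were called higher. It rose again at 10 against 3 µg/kg by 1.70 and at 30 against 10 µg/kg by 1.45 (edgeR, adjusted p of 0.000219 and 0.00205), where 0.675% and 1.38% of all genes were called higher.

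**Figure D2:**
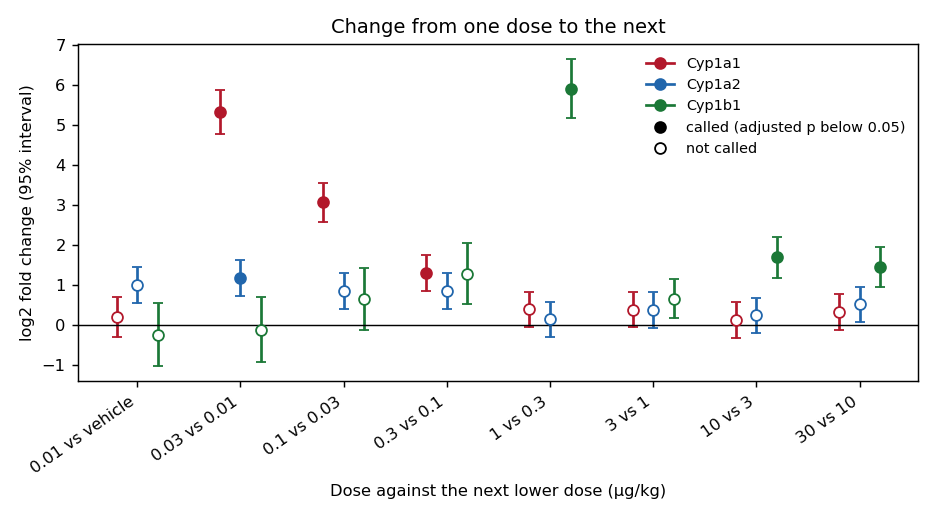
Log2 fold change with 95% interval from edgeR for each dose against the next lower one (µg/kg, vehicle at the left), with filled points called at an adjusted p below 0.05 and open points not called. The large steps of Cyp1a1 lie at 0.03 and 0.1 µg/kg, at 5.34 and 3.07, and that of Cyp1b1 at 1 µg/kg, at 5.92.

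Inflammatory cell markers were also higher at 1 µg/kg, the dose of this step of Cyp1b1. All 7 neutrophil markers tested and all 7 macrophage markers were higher at 1 µg/kg than in vehicle, where 11.1% of all genes tested were. At 3 µg/kg no neutrophil or macrophage marker was called against vehicle, where 5.17% of all genes were called higher. Of the 7 neutrophil markers tested, 3 were lower at 3 than at 1 µg/kg, as were 47 of all 15121 genes. The 8 neutrophil markers summed to 10.5, 12.5 and 5.43 CPM at 3 µg/kg, where Cyp1b1 was 192, 240.3 and 233 CPM. Higher than in vehicle at 10 µg/kg were 3 neutrophil markers, and at 30 µg/kg all 7 tested, where 11.3% and 18.0% of all genes were. No macrophage marker was called higher at either dose. The 8 neutrophil markers summed to 52.6, 51.6 and 120.2 CPM in the livers at 30 µg/kg, where Cyp1b1 was highest, against 2.76, 1.203 and 2.57 CPM in vehicle. The summed level of the 8 neutrophil markers was 1084, 5.14 and 183 CPM in the 3 livers at 1 µg/kg, against 3.32, 0 and 0.659 CPM at 0.3 µg/kg, where Ly6g and Camp had no read. Cyp1b1 was 162, 135 and 122 CPM in those 3 livers at 1 µg/kg, listed in the same sequence of livers. The 7 macrophage markers summed to 1542, 384 and 892 CPM at 1 µg/kg, against 191, 270.1 and 334 CPM at 0.3 µg/kg. The 12 stellate cell and fibroblast markers summed to 509.5, 459.5 and 787 CPM at 1 µg/kg, against 268, 342 and 366 CPM at 0.3 µg/kg. These 12 markers summed to 608 to 1111 CPM at 30 µg/kg, against 314 to 414 CPM in vehicle. The part of these cell types in the Cyp1b1 values was not tested.

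Whether a gene had levelled off was judged by 2 conditions, no called step and no called difference from 30 µg/kg. Cyp1a1 met both from 3 µg/kg and Cyp1a2 from 10 µg/kg, while Cyp1b1 met them at no dose below 30 µg/kg. At 30 against 3 µg/kg the log2 fold change was 0.45 for Cyp1a1 (interval 0.01 to 0.90; edgeR, adjusted p = 0.131), 0.77 for Cyp1a2 (interval 0.32 to 1.21; edgeR, adjusted p = 0.0122) and 3.15 for Cyp1b1 (edgeR, adjusted p = 1.14e-08), so 2 of 3 were called higher, where 10.7% of all genes were. For Cyp1a2 the call was lost without the third 3 µg/kg library (edgeR, adjusted p = 0.0546). The means of Cyp1a1 and Cyp1a2 were highest at 30 µg/kg, where all livers lay above all at 10 µg/kg for both genes. At 30 against 10 µg/kg the log2 fold change of Cyp1a1 was 0.33 (interval -0.12 to 0.77). That of Cyp1a2 was 0.52, with an interval of 0.08 to 0.97 that lies above 0 (edgeR, unadjusted p = 0.0232, adjusted p = 0.187). A further rise of up to 1.71-fold for Cyp1a1 and 1.95-fold for Cyp1a2 is thus within the error, and a flat top was not shown for either. The scaling bears on this point. With libraries scaled to total counts alone, all genes shifted up by 0.31 on the log2 scale at 30 against 3 µg/kg, and Cyp1a1 was then called at 0.76 (edgeR, adjusted p = 0.00383). The Cyp1a2 step at 30 against 10 µg/kg was also called in that scaling (0.70, edgeR, adjusted p = 0.0286). As a share of all counts, Cyp1a1 was 0.914% at 30 µg/kg, against 0.539% at 3 µg/kg.

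**Figure D3:**
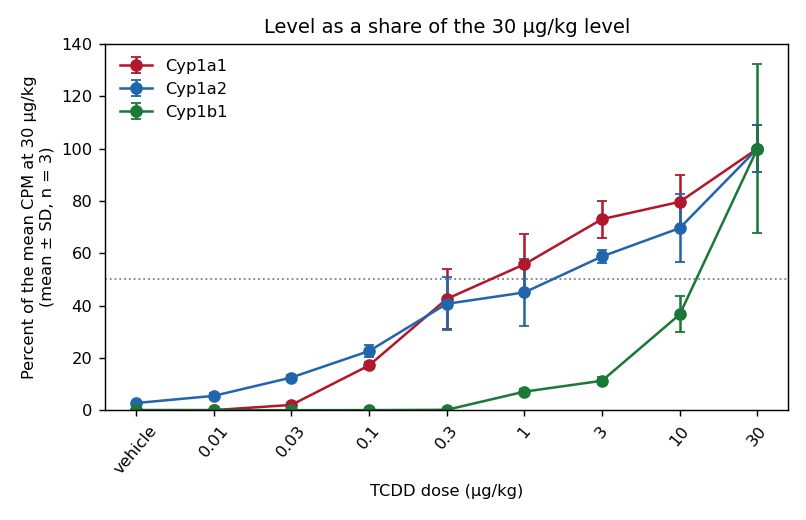
Mean CPM as a percent of the mean at 30 µg/kg for each gene against TCDD dose, with error bars of 1 SD over 3 livers on the same scale and a dotted line at 50%. Cyp1a1 and Cyp1a2 are at 73.1% and 58.8% at 3 µg/kg, where Cyp1b1 is at 11.3%.

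The dose at 50% of the maximum was estimated from a 4-parameter Hill curve fitted to the counts of all 27 livers. It was 0.122 µg/kg for Cyp1a1 (95% profile interval 0.0819 to 0.178), 0.468 µg/kg for Cyp1a2 (0.227 to 1.37) and 2.87 µg/kg for Cyp1b1 (1.39 to 6.63). The 3 intervals do not overlap, although those of Cyp1a2 and Cyp1b1 nearly touch. The Hill slope, which is larger where a curve is steeper, was 2.83 for Cyp1a1, 0.773 for Cyp1a2 and 2.46 for Cyp1b1. The fitted tops were 5026 CPM for Cyp1a1, 22039 CPM for Cyp1a2 and 1194 CPM for Cyp1b1, all below the measured means at 30 µg/kg of 7201 ± 652, 26408 ± 2399 and 1964 ± 636 CPM (SD, n = 3 each). A single Hill curve did not follow Cyp1a1 and Cyp1b1 closely. The largest gap between a group mean and the curve was 0.93 on the log2 scale for Cyp1a1, at 0.01 µg/kg, and 1.51 for Cyp1b1, at 3 µg/kg, against 0.32 for Cyp1a2, at 30 µg/kg. At 3 µg/kg, near its fitted 50% dose, Cyp1b1 had a mean of 222 CPM, against 629 CPM on the curve. The Cyp1a1 means at 0.01, 0.1, 0.3 and 1 µg/kg lay below the curve, and its other means above it. Where the misfit is this large the profile interval, which assumes the curve, is too narrow as a statement of error. The gaps between the 3 intervals therefore do not show by themselves that the 50% doses differ.

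Other readings of the middle of the range gave other doses but kept the order of the genes. Interpolated between the group means, which assumes no curve, the level midway between vehicle and 30 µg/kg was reached at 0.615 µg/kg for Cyp1a1, 1.72 µg/kg for Cyp1a2 and 14.1 µg/kg for Cyp1b1. The midpoint of the Hill curve on the log2 scale, which follows the fold change, was reached at 0.0322 µg/kg for Cyp1a1, 0.0504 µg/kg for Cyp1a2 and 0.626 µg/kg for Cyp1b1. Cyp1a1 came before Cyp1a2, and Cyp1a2 before Cyp1b1, in 6 of 7 other settings and in all 27 fits that left out 1 library. The exception was a Hill curve with its slope held at 1, where Cyp1a2 (0.237 µg/kg) came before Cyp1a1 (0.997 µg/kg) and Cyp1b1 had no value within the doses given.

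Because a ratio of 2 genes within a liver does not depend on how libraries are scaled, the ratios of counts show the same differences in another way. Cyp1a1 had 0.00337 to 0.00484 reads per Cyp1a2 read in vehicle livers, 0.00201 to 0.00287 at 0.01 µg/kg, 0.0394 to 0.0513 at 0.03 µg/kg, 0.194 to 0.213 at 0.1 µg/kg and 0.277 to 0.289 at 0.3 µg/kg. From there it stayed between 0.244 and 0.399 up to 30 µg/kg. At 0.01 µg/kg the low ratio also limits how many Cyp1a2 reads could have been counted for Cyp1a1, its close relative. Below 0.3 µg/kg the balance between the neighbouring genes shifted. The ratio was 0.312 to 0.358 at 3 µg/kg and 0.294 to 0.343 at 10 µg/kg, both wholly above the range at 0.3 µg/kg. At 30 µg/kg it was 0.244 to 0.293, wholly below 3 and 10 µg/kg and overlapping 0.3 µg/kg. Between the 9 livers at 3 to 30 µg/kg and the 9 at 0.03 to 0.3 µg/kg the log2 ratio averaged -1.70 ± 0.17 and -2.87 ± 1.25 (SD), a difference of 1.16 (exact permutation test, two-sided, p = 0.00123, adjusted over 3 ratios 0.00123). With 0.1 and 0.3 against 10 and 30 µg/kg the difference was 0.27 on the log2 scale (exact permutation test, p = 0.0519). That second comparison leaves out the 0.03 and 3 µg/kg livers.

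The ratio of Cyp1b1 to Cyp1a1 followed a U-shaped course. It was 0.226 to 0.280 in vehicle livers, 0.000362 to 0.00137 at 0.1 µg/kg and 0.161 to 0.378 at 30 µg/kg, so the range at 30 µg/kg covered that of vehicle although Cyp1a1 was 2299.5-fold and Cyp1b1 2557-fold higher there. The log2 ratio was higher by 6.21 in the 9 livers at 3 to 30 µg/kg than in the 9 livers at 0.03 to 0.3 µg/kg (exact permutation test, adjusted p = 6.17e-05). For Cyp1b1 over Cyp1a2 the difference was 7.37 (exact permutation test, adjusted p = 6.17e-05), and in both ratios the unadjusted p of 4.11e-05 is the smallest that 9 against 9 livers can give. The dose ranges compared lie on either side of the Cyp1b1 step at 1 µg/kg, so this separation adds nothing to that step. In all 3 ratios each side pools livers of 3 doses, which are not replicates of 1 condition. Within groups the highest liver was not always the same for the 3 genes. Cyp1a1 and Cyp1a2 had the same highest liver in 5 of 9 groups, Cyp1a1 and Cyp1b1 in 4, and Cyp1a2 and Cyp1b1 in 3. With 3 livers a group some agreement arises by chance, and these counts were not tested against it.

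**Figure D4:**
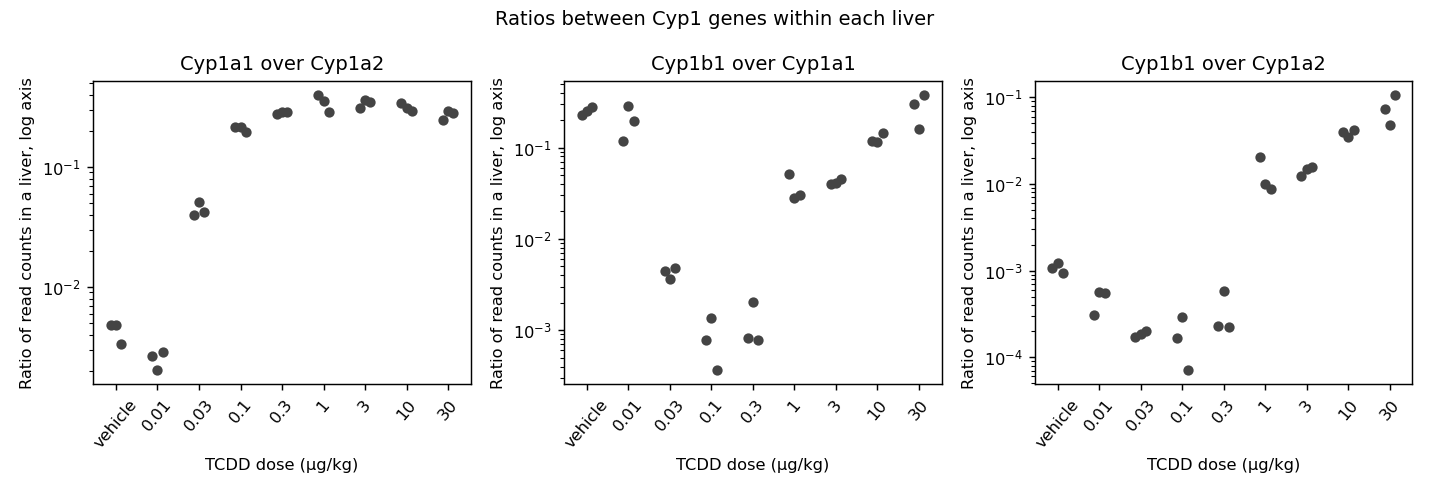
Ratio of the read counts of 2 Cyp1 genes in each liver (log axes) against TCDD dose, with each point 1 liver and 3 livers per dose. Cyp1a1 over Cyp1a2 climbs to 0.277 to 0.289 at 0.3 µg/kg. It is 0.312 to 0.358 at 3 µg/kg and 0.244 to 0.293 at 30 µg/kg. Cyp1b1 over Cyp1a1 falls to 0.000362 at 0.1 µg/kg before it climbs to 0.161 to 0.378 at 30 µg/kg.

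Per kb of exon the order of the 3 genes was the same in every group. Cyp1a2 had the highest mean level in every group, at 13119 CPM per kb at 30 µg/kg and 362 CPM per kb in vehicle. Cyp1a1 was next in every group, at 2584 CPM per kb at 30 µg/kg and 1.12 CPM per kb in vehicle, and Cyp1b1 was lowest, at 336 and 0.131 CPM per kb. By mean CPM per kb at 30 µg/kg, Cyp1a2 was at place 2, Cyp1a1 at place 13 and Cyp1b1 at place 93 among all genes listed, against places 125, 10159 and 14733 in vehicle. The 3 genes together took up 4.53% ± 0.405 of all counts at 30 µg/kg and 0.0691% ± 0.00940 in vehicle (SD, n = 3 each).

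Other genes of the pathway were set beside the family from lists chosen with earlier results of these data known. In the receptor complex, 6 of 7 genes were tested (Arnt2 was too low), and none was called against vehicle at any dose up to 10 µg/kg, the dose at which 11.3% of all genes were called higher and 11.2% lower. At 30 µg/kg Arnt, the partner of AhR, was called, with 35.3 ± 6.01 against 46.4 ± 4.74 CPM in vehicle (SD, n = 3 each; log2 fold change -0.39, edgeR, adjusted p = 0.0216). That call was lost by DESeq2 (-0.28, adjusted p = 0.106) and with RLE factors (edgeR, adjusted p = 0.101), and the value was 0.05 with total counts alone, so no direction is given for Arnt. Ahr itself had 53.5 ± 8.86 CPM at 30 µg/kg and 48.2 ± 10.4 CPM in vehicle (edgeR, adjusted p = 0.577), but was called higher with total counts alone (log2 fold change 0.59, edgeR, adjusted p = 0.0338). The list's median log2 fold change at 30 µg/kg was -0.12, against -0.01 over all genes tested.

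The feedback genes were Ahrr, which encodes a repressor that competes with AhR for ARNT, and Tiparp, an ADP-ribosyltransferase that acts on AhR. Both were called higher than in vehicle at 1 µg/kg and above. Of all genes tested, 11.1%, 5.17%, 11.3% and 18.0% were called higher at 1, 3, 10 and 30 µg/kg. Ahrr had 0.150 ± 0.0648 CPM in vehicle, 0.139 ± 0.0341 CPM at 0.1 µg/kg, 4.91 ± 3.32 CPM at 0.3 µg/kg, 19.5 ± 5.21 CPM at 1 µg/kg and, at 30 µg/kg, 77.8 ± 4.79 CPM (SD, n = 3 each). It was first called at 0.3 µg/kg (log2 fold change 4.33, edgeR, adjusted p = 9.07e-08), the same dose as Cyp1b1. Tiparp averaged 17.4 ± 5.01 CPM in livers at 1 µg/kg and 116 ± 40.2 CPM in livers at 30 µg/kg, against 5.32 ± 0.890 CPM in vehicle, and was called from 1 µg/kg. Cyp1a1 was called from 0.03 µg/kg, a dose at which Tiparp had 6.29 ± 0.923 CPM and Ahrr 0.193 ± 0.0937 CPM. Of 6 other classic targets, 5 were higher than in vehicle at 30 µg/kg, where 18.0% of all genes were, with a list median of 2.95 on the log2 scale against -0.01 over all genes. The earliest was Nqo1, a quinone reductase, which was called from 0.1 µg/kg (23.2 ± 2.00 against 12.6 ± 0.533 CPM in vehicle; edgeR, adjusted p = 0.0427) and had 189 ± 65.5 CPM at 30 µg/kg. At 0.1 µg/kg that call was lost in 16 of 27 fits without 1 library, among them those without any 1 vehicle or 0.1 µg/kg library, and at 0.3 µg/kg without the third library of that dose. Nfe2l2, a regulator of antioxidant genes, was called from 1 µg/kg and reached 274 ± 67.8 CPM at 30 µg/kg, against 69.4 ± 10.4 CPM in vehicle. Gsta1, a glutathione transferase, had 9.95 ± 5.22 against 0.141 ± 0.123 CPM, and Aldh3a1, an aldehyde dehydrogenase, 0.631 ± 0.286 against 0.0124 ± 0.0215 CPM, at 30 µg/kg against vehicle. Ugt1a6a, a glucuronosyltransferase, was higher and Ugt1a6b was not called, although RLE factors called it (log2 fold change 0.53, edgeR, adjusted p = 0.0478), and 50.3% and 60.6% of their exonic bases are shared with other Ugt1a genes, so the split between them is uncertain.

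**Figure D5:**
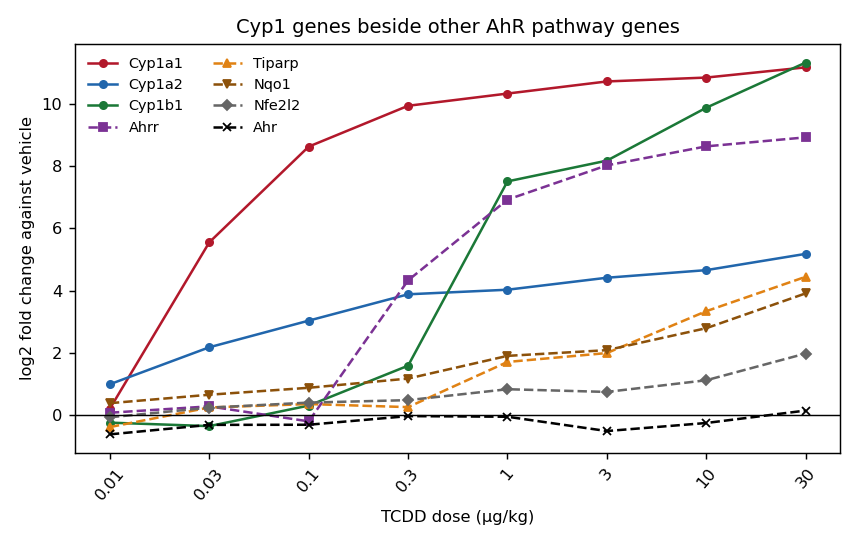
Log2 fold change against vehicle from edgeR at each TCDD dose for the 3 Cyp1 genes (solid lines) and 5 other genes of the AhR pathway (dashed lines). Cyp1a1 has reached 5.55 at 0.03 µg/kg, Ahrr and Cyp1b1 climb between 0.1 and 1 µg/kg, and Ahr lies between -0.61 and 0.15.

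Among 4 genes for electron donors of P450 enzymes, 2 were higher than in vehicle at 0.3 to 10 µg/kg and the other two were lower at 10 and 30 µg/kg. Of all genes, 0.622%, 11.1%, 5.17% and 11.3% were called higher at 0.3, 1, 3 and 10 µg/kg. The list's median log2 fold change at 30 µg/kg was -0.13, against -0.01 over all genes tested. Por, the P450 oxidoreductase, was called higher than vehicle at 0.3, 1, 3 and 10 µg/kg, with its highest mean at 3 µg/kg (735 ± 194.5 against 307 ± 29.1 CPM in vehicle; log2 fold change 1.26, edgeR, adjusted p = 0.000960). Por then had 449 ± 80.1 CPM at 30 µg/kg and was not called (edgeR, adjusted p = 0.0796), whereas DESeq2 called it higher there (0.66, adjusted p = 0.0241). With RLE factors, upper-quartile factors, total counts or 6 libraries alone, edgeR also called Por higher at 30 µg/kg. The edgeR adjusted p was 0.0362, 0.0444, 0.000924 and 0.0392 in these fits, so the call of Por at this dose turns on the fit. Its call at 0.3 µg/kg was lost in 14 of 27 fits without 1 library, at 10 µg/kg in 3 and at 1 µg/kg in 1. Cyb5a, the microsomal cytochrome b5, was likewise called from 0.3 to 10 µg/kg, with 2027 ± 428 CPM at 0.3 µg/kg against 1001 ± 124 CPM in vehicle. Its calls at 3 and 10 µg/kg were each lost in 4 of 27 fits without 1 library, and that at 0.3 µg/kg in 1. Cyb5b, its mitochondrial relative, and Cyb5r3, the cytochrome b5 reductase, were lower than vehicle at 10 and 30 µg/kg, where 11.2% and 19.4% of all genes were called lower. Cyb5r3 had 273 ± 49.9 CPM at 30 µg/kg, against 625 ± 29.5 CPM in vehicle. With total counts alone Cyb5b was not called at 30 µg/kg (-0.19, edgeR, adjusted p = 0.336), nor Cyb5r3 at 10 µg/kg (edgeR, adjusted p = 0.0936), and both calls were lost without some single libraries.

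Among neighbours of the loci, Clk3 and Rmdn2 were called at some dose. Of 12 other protein-coding genes within 200 kb of Cyp1a1 or Cyp1a2, 9 were tested, and their median log2 fold change at 30 µg/kg was -0.16, against -0.01 over all genes. Edc3, which starts 4716 bp beyond the end of Cyp1a1, had 16.0 ± 0.917 CPM at 30 µg/kg and 17.9 ± 1.59 CPM in vehicle (edgeR, adjusted p = 0.378). Of those 9, 1 was called at 30 µg/kg, where 18.0% of all genes were called higher and 19.4% lower. It was Clk3, with 31.2 ± 2.22 against 39.3 ± 2.75 CPM in vehicle (edgeR, adjusted p = 0.0327). The call of Clk3 was lost by DESeq2 (adjusted p = 0.170), and its log2 fold change was 0.09 with total counts alone, so no direction is given, and no neighbour on chromosome 9 was called at a lower dose. Edc3 and Clk3 overlap on opposite strands, in 22.1% and 15.2% of their exonic bases, so reads of one can count for the other if the counting ignored strand. Beside Cyp1b1, Rmdn2 was higher at 1 and 3 µg/kg (48.98 ± 11.6 and 50.5 ± 1.72 CPM, against 34.1 ± 4.22 CPM in vehicle; edgeR, adjusted p of 0.0446 and 0.0481) and Atl2 was called at no dose. Of all genes tested, 11.1% and 5.17% were called higher at 1 and 3 µg/kg. Both Rmdn2 calls were lost with a replicate block (edgeR, adjusted p of 0.0516 and 0.0595) and without any 1 vehicle library.

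The genes with the most similar course were sought among 11510 protein-coding genes by Pearson's r of log2 CPM over the 26 deeper livers, as a description, since all points share their libraries and their doses. Cyp1a1 and Cyp1a2 were each other's closest match, with r = 0.969. After it came Dbp, Cyp2a5, Snhg11 and Per3 for Cyp1a1 (r = 0.952 to 0.932) and Htatip2, Cyp2a5, Maff and Lrp4 for Cyp1a2 (r = 0.964 to 0.939). Cyp1b1 was matched most closely by Serpinb6a, Ism2, Ahrr, Fabp12 and Arhgap10 (r = 0.990 to 0.977), and less by Cyp1a2 (r = 0.832) and Cyp1a1 (r = 0.748). Dbp and Per3, which encode transcriptional regulators of the daily rhythm, had smaller fold changes against vehicle at the top dose than at 1 µg/kg. The log2 fold change of Dbp was 6.89 at 0.3 µg/kg, 7.22 at 1 µg/kg and 5.56 at 30 µg/kg, and that of Per3 was 5.07, 5.51 and 3.90 at the same doses. Of the Cyp1b1 companions, all 5 were called higher at 1 µg/kg, where 11.1% of all genes were. Ahrr and Ism2 were called higher at 0.3 µg/kg, where 0.622% of all genes were. Because the 5 were picked for likeness to Cyp1b1 in these same livers, such calls are no separate result. Without the third 0.3 µg/kg library Ism2 was not called at that dose (edgeR, adjusted p = 0.302). At 30 µg/kg Serpinb6a, a serine protease inhibitor, had 195 ± 11.9 against 11.4 ± 0.726 CPM in vehicle, and Ism2, a secreted protein, 21.5 ± 1.70 against 0.249 ± 0.0453 CPM. Exons overlap a gene of the other strand in 29.3% of the bases of Serpinb6a, 18.0% of Dbp and 10.5% of Arhgap10, which limits these counts if strand was ignored. By Spearman's rho, 1, 2 and 0 of the 5 genes named for Cyp1a1, Cyp1a2 and Cyp1b1 stayed among the closest 5.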

How the data were processed

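RNA of 27 mouse livers was sequenced from TruSeq libraries of TRIzol extracts, per the labels' protocols. The authors deposited 1 table of raw counts of reads on genes for each library. Named in the submitters' processing notes are FastQC 0.11.2, cutadapt 1.4.1, TopHat 1.4.1, SAMtools 0.1.19, HTSeq 0.6.1 and DESeq, with GRCm38. For the strand setting and for the annotation release, the sources used here give nothing. Counting left out alignments that were not unique, which numbered 0.609 to 1.14 per count. Both reads outside genes, with a share of 5.62% to 11.9%, and ambiguous reads, with 1.79% to 3.49%, stayed out of library sizes (shares of these and the counted reads together). Symbols were matched for 40254 of 41388 identifiers. Total counts had a median of 19999504 per library.

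The fit used edgeR 4.0.16 in R 4.3.3: filterByExpr with a minimum count of 10, TMM scaling and a robust quasi-likelihood fit to all 27 libraries as 9 groups (18 residual degrees of freedom), with Benjamini-Hochberg adjustment over 15121 genes. Contrasts set each dose against vehicle, against the next lower dose, and 30 µg/kg against each lower dose. The series' design text calls the 3 samples of a group biological replicates, and counts of no 2 libraries of a group agreed within sampling noise (chi-square per degree of freedom at least 6.07). The 50% dose came from a negative binomial Hill fit with a 95% profile-likelihood interval (scipy 1.17.1). Ratios within livers, with 0.5 added to each count, were compared by exact permutation tests, two-sided. Likeness used log2(CPM + 0.5) in libraries of over 5000000 counts and genes averaging 1 CPM or more. The scripts were tested on simulated counts. DESeq2 1.42.0, other scalings, filters and curve forms, fits of 6 libraries alone, a replicate block and leaving out each library were alternatives.

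Named were the 3 Cyp1 genes, the listed pathway genes, neighbours within 200 kb and the 5 most similar genes of each Cyp1 gene. The Cyp1 genes were found by name alone, but the family and the lists were taken up with earlier results of these data known.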

Additional observations from a re-analysis of the deposited data

How the results depend on the processing

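The dose of first change, the steps and the middle of the curve were recomputed under 8 other fits and 7 other readings of the curve. Against vehicle, the values of the 3 Cyp1 genes kept their direction and side of the threshold except as follows. Cyp1a2 at 0.01 µg/kg was called by DESeq2 (log2 fold change 1.01, adjusted p = 0.00429). Cyp1b1 at 0.3 µg/kg was not called with total counts alone (1.54, edgeR, adjusted p = 0.0632) or with 6 libraries alone (1.61, edgeR, adjusted p = 0.0802), and its onset is then 1 µg/kg. With total counts alone all genes shifted up by 0.44 on the log2 scale at 30 µg/kg against vehicle, and 5923 genes were higher and 1158 lower, against 2720 and 2940 with TMM. Of 55 values of other named genes against vehicle, 14 changed their call or sign in some fit of all libraries or of 6 alone, and 16 in some fit without 1 library. With total counts, the log2 fold change at 30 µg/kg turned sign for Arnt (0.0526), Clk3 (0.0931) and Edc3 (0.271).

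Fits of 6 libraries alone, which have fewer samples, lost the steps of Cyp1a2 at 0.03 against 0.01 (1.19), Cyp1a1 at 0.3 against 0.1 (1.33) and Cyp1b1 at 30 against 10 µg/kg (1.45), and the differences at 30 against 1 µg/kg of Cyp1a1 (0.88) and Cyp1a2 (1.19). Further steps were called for Cyp1a2 at 0.1 against 0.03 (0.93 with total counts, 0.86 with DESeq2, 0.85 with 6 libraries), at 0.3 against 0.1 (0.88 with DESeq2) and at 30 against 10 µg/kg (0.70 with total counts). With total counts Cyp1a1 was called at 1 against 0.3 (0.65) and at 30 against 3 µg/kg (0.76). Apart from these shifts of scale and sample number, the cause was not tested.

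The 50% dose depended on how it was read. By interpolation it was 0.615, 1.72 and 14.1 µg/kg for Cyp1a1, Cyp1a2 and Cyp1b1, and at the log2 midpoint 0.0322, 0.0504 and 0.626 µg/kg. With a slope of 1 it was 0.997 µg/kg for Cyp1a1, and Cyp1b1 gave no value within the doses. It was 1.47 µg/kg for Cyp1a2 with total counts, and without the 30 µg/kg group 0.211 µg/kg for Cyp1a2 and 1.304 µg/kg for Cyp1b1. Leaving out 1 library gave 0.101 to 0.140, 0.357 to 0.617 and 1.87 to 4.22 µg/kg for the 3 genes. The ratio of Cyp1a1 to Cyp1a2 differed by 0.27 in the narrower comparison (exact permutation test, p = 0.0519).

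With 1 library left out, the log2 fold change lay between 1.29 and 1.91 for Cyp1b1 at 0.3 µg/kg against vehicle, 1.19 and 1.52 for Cyp1a1 at 0.3 against 0.1, 1.07 and 1.33 for Cyp1a2 at 0.03 against 0.01, and 0.72 and 0.84 for Cyp1a2 at 30 against 3 µg/kg. Values that were never called turned sign for Cyp1b1 at 0.1 µg/kg against vehicle (-0.11 to 0.72, the lowest without the second 0.1 µg/kg library), Cyp1b1 at 0.03 against 0.01 (-0.27 to 0.03, the highest, 0.0299, without the second 0.01 µg/kg library) and Cyp1a2 at 1 against 0.3 µg/kg (-0.04 to 0.35, the lowest, -0.0434, without the first 0.3 µg/kg library).

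Counts of called genes over all genes also moved. Against vehicle they were 1 with total counts, 1 without a filter and 15 with DESeq2 at 0.01 µg/kg, 58 with DESeq2 and 77 with 6 libraries at 0.1 µg/kg, 280 and 106 at 0.3 µg/kg, and 1591 with 6 libraries at 1 µg/kg, where the main counts were 0, 29, 179 and 2927. For steps they were 67 with DESeq2 and 1 with 6 libraries at 0.03 against 0.01 (main 16), and 7 with total counts, 13 with DESeq2 and 16 with 6 libraries at 0.1 against 0.03 (main 4). They were 11 with DESeq2 and 7 with 6 libraries at 0.3 against 0.1 (main 3), 15 with 6 libraries at 1 against 0.3 (main 1081), 53 with total counts, 343 with DESeq2 and 7 with 6 libraries at 3 against 1 (main 94), 341 with 6 libraries at 10 against 3 (main 160) and 2 at 30 against 10 µg/kg (main 484). With 1 library left out they ranged from 0 to 56 at 0.01, 53 to 240 at 0.3, 1731 to 3264 at 1, 917 to 1654 at 3 and 2162 to 3589 at 10 µg/kg against vehicle. For steps they ranged from 1 to 148 at 0.03, 1 to 6 at 0.1, 2 to 9 at 0.3, 120 to 1716 at 1, 17 to 949 at 3, 71 to 241 at 10 and 46 to 1741 at 30 µg/kg.

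Replicate numbers did not pair the livers: deviations of 108 same-numbered pairs had a mean correlation of 0.00977 and 20 were over 0.1. With the replicate block no call of a Cyp1 gene changed, and 5638 genes were called at 30 µg/kg against vehicle, where the fit without it called 5660. Depth limits Cyp1b1 up to and including 0.3 µg/kg. It rests on 10 to 26 reads a library below that dose and on 23, 2 and 41 reads at 0.3 µg/kg. With 3 livers a group, all steps near the top of the curves are limited.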
